A study of Mus musculus with 3 samples.

Results

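Interferon-responsive macrophages of the mouse heart were taken here as C1q-positive macrophages that held at least 5 UMIs summed over Ifit1, Ifit2, Ifit3, Rsad2 and Usp18, genes that cells switch on after they sense interferon. A UMI is 1 counted RNA molecule. The other conditions were at least 200 genes, at most 10% mitochondrial UMIs, at least 5 UMIs over C1qa, C1qb and C1qc, less than 0.3% of UMIs from S100a8 and S100a9, no UMI of Cd79a or of Cd3d, Cd3e and Cd3g, at most 1 UMI over Lyve1 and Timd4, at most 1 over Mki67 and Top2a, and less than 1% of UMIs from H2-Aa, H2-Ab1 and H2-Eb1. These conditions kept 1393 of 33159 barcodes, namely 677 of 12707 in MI-E, 688 of 9095 in MI and 28 of 11357 in Sham. They were described against the 7518 C1q macrophages that met every condition except the one on the 5 interferon genes, 2732 in MI-E, 3539 in MI and 1247 in Sham. Some barcodes with S100a8 and S100a9 at 1% of UMIs or more and no Csf1r also met the condition on C1q. They were 12 of 2102 in MI-E (0.571%), 8 of 260 in MI (3.08%) and 84 of 573 in Sham (14.7%). The condition on S100a8 and S100a9 left these out. Some of the 1247 in Sham may still not be macrophages, which was not tested.

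The series holds 1 single-cell library for each of 3 groups, labelled MI-E, MI and Sham, all made from hearts of C57BL/6J mice 8 to 9 weeks old and from cells sorted on CD45, the surface protein shared by leukocytes. The title of the series speaks of myocardial infarction. The labels do not expand MI-E, carry the same coronary ligation text for all 3 groups, Sham included, and give neither a time after surgery nor a number of pooled hearts. With 1 library a group, no difference between groups could be tested, and every interval below is a 95% interval that covers counting error only.

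Type I interferons, among them interferon beta, bind the receptor built from Ifnar1 and Ifnar2 and activate the kinases Jak1 and Tyk2. The signal then reaches a complex that holds IRF9 and binds interferon-stimulated response elements (ISREs) in promoters, so that a cell makes sensors of foreign nucleic acid, antiviral enzymes and chemokines. Interferon gamma uses another receptor, and its signal acts through GAS elements. Macrophages are both a source of interferon beta and a responder to it.

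Promoter windows of 3 genes of the rule and of 5 genes that stood higher in the selected cells are shown because they hold the motif of this pathway, for which they were picked. The windows are from the RefSeq promoter table for GRCm38.p6, 100 bases on the strand of the gene, 5' to 3', and the capitals mark matches to the ISRE core, which is GAAA, any 2 bases and GAAA again, or to its reverse complement, TTTC, any 2 bases and TTTC. The 3 matches of Isg15 and the 2 of Irgm1 overlap.
Ifit1, chr19:34640759-34640858, plus strand: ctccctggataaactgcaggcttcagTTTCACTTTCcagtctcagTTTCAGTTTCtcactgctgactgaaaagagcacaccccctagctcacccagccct
Ifit3, chr19:34583362-34583461, plus strand: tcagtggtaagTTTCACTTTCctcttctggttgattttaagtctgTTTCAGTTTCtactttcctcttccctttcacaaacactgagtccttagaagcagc
Rsad2, chr12:26456518-26456617, minus strand: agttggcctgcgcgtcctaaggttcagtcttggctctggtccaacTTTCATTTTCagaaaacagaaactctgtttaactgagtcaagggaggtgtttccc
Isg15, chr4:156200830-156200929, minus strand: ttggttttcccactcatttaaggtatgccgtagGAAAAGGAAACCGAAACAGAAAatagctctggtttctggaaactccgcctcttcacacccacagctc
Cxcl10, chr5:92349040-92349139, minus strand: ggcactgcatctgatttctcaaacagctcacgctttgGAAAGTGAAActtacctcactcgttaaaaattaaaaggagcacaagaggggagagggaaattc
Irgm1, chr11:48871421-48871520, minus strand: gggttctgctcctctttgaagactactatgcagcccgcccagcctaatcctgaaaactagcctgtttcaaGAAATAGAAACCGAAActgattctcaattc
Gbp2, chr3:142620559-142620658, plus strand: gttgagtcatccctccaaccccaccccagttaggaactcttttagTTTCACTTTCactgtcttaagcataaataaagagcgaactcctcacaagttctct
Ifi206, chr1:173491319-173491418, minus strand: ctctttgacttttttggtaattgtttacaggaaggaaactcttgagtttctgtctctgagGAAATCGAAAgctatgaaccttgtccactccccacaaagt

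Irf7, which encodes a transcription factor that amplifies the interferon response, held no ISRE core in the window of 250 bases before to 50 after its start, and neither did Cmpk2, the first of the genes named below by the smaller of their MI-E and MI ratios. Of the other genes of the rule, Ifit2 held none at either of its 2 starts, and Usp18 had no RefSeq window. Oasl1, Ifi47, Phf11d and Ifi209, also named below, held none either. No match says only that these letters are not in this window. Cmpk2 is shown for comparison.
Cmpk2, chr12:26469115-26469214, plus strand: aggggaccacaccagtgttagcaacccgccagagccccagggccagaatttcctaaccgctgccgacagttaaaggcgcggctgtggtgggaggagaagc

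Total depth was 104562768 UMIs in MI-E, 98814001 in MI and 41140109 in Sham, with medians of 7287, 9604 and 2727 UMIs a barcode. The interferon-responsive macrophages were deeper than the other C1q macrophages of their library, with a median of 13000 UMIs against 11091 in MI-E, 12093.5 against 10652 in MI and 6530.5 against 3490 in Sham. A condition on UMI counts favours deep cells, so shares are also given after each cell was thinned at random to 5000 UMIs. The libraries shared between 26 and 45 barcode sequences a pair, and no barcode was an interferon-responsive macrophage in both libraries of a pair.

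The levels of Rsad2 and C1qa were set by the selection and only describe it. Rsad2, which encodes the antiviral enzyme viperin and was used for selection, stood at 574 CPM (the UMIs of a gene summed over cells and scaled to the same total in each population) in MI-E, 600 in MI and 469 in Sham, against 44.9, 37.3 and 26.8 CPM in the other C1q macrophages. Rsad2 was seen in 96.3% of the interferon-responsive macrophages of MI-E, 95.3% of MI and 67.9% of Sham. C1qa, a subunit of the first complement component, was close in the interferon-responsive and the other macrophages, at 2461 against 2237 CPM in MI-E, 2302 against 2364 in MI and 4592 against 5637 in Sham. Irf7, a marker of the label that was not used for selection, was higher in the selected cells of all 3 libraries. It stood at 519 against 313 CPM in MI-E, 332 against 139 in MI and 83.4 against 21.0 in Sham, and was seen in 96.3%, 80.5% and 28.6% of the cells. Thinned to 5000 UMIs, Irf7 was seen in 80.4%, 64.6% and 26.1% of the interferon-responsive cells, against 68.2%, 39.2% and 6.71% of the other macrophages and 38.6%, 24.2% and 14.9% of lymphocytes. Of 12 macrophage identity genes, such as Adgre1 (the F4/80 antigen) and Csf1r (the receptor for colony-stimulating factor 1), none passed 1.5-fold in MI-E or MI, and 1, the transcription factor gene Maf, was lower in Sham.

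Most cells met the condition by more than 1 gene. Only 1 of the 5 genes was seen in 8.12% of the cells in MI-E, 10.6% in MI and 10.7% in Sham, and all 5 were seen in 19.2%, 17.0% and 0%. The median cell held 9 UMIs of the 5 genes in MI-E, 10 in MI and 8 in Sham, and the highest held 185, 136 and 18. Just inside the threshold, at 5 UMIs, were 108 cells in MI-E, 118 in MI and 6 in Sham, and just outside it, at 4 UMIs, were 169, 157 and 18. The values had no gap at the threshold, so the population is the upper range of a gradient.

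Interferon-responsive cells were 19.9% of the C1q macrophages that met the other conditions in MI-E (677 of 3409, Clopper-Pearson interval 18.5% to 21.2%), 16.3% in MI (688 of 4227, 15.2% to 17.4%) and 2.20% in Sham (28 of 1275, 1.46% to 3.16%). The share in MI-E was 1.22 times that in MI (1.10 to 1.36), and the share in MI was 7.41 times that in Sham (5.08 to 11.2). Without cells that held non-leukocyte RNA, described further on, the share in MI-E was 1.13 times that in MI (1.01 to 1.27). Thinned to 5000 UMIs and with at least 3 UMIs of the 5 genes, the shares were 17.2% in MI-E (555 of 3220), 13.5% in MI (536 of 3957) and 11.4% in Sham (40 of 351, 8.27% to 15.2%). At equal depth the ratio of MI-E to MI was 1.27 (1.13 to 1.44), while that of MI to Sham was 1.19 (0.861 to 1.68) and its interval included 1. The ratio of MI-E to Sham was 1.51 (1.10 to 2.14). Thinning left out 10, 25 and 5 interferon-responsive cells of MI-E, MI and Sham that held under 5000 UMIs, and 179, 245 and 919 of the other C1q macrophages. With the 5 genes at 0.05% of UMIs or more in place of a count, the shares were 15.8%, 14.5% and 8.00%. The ratio of MI-E to MI was then 1.09 (0.966 to 1.22), and its interval included 1, while that of MI to Sham was 1.82 (1.47 to 2.26).

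**Figure D1:**
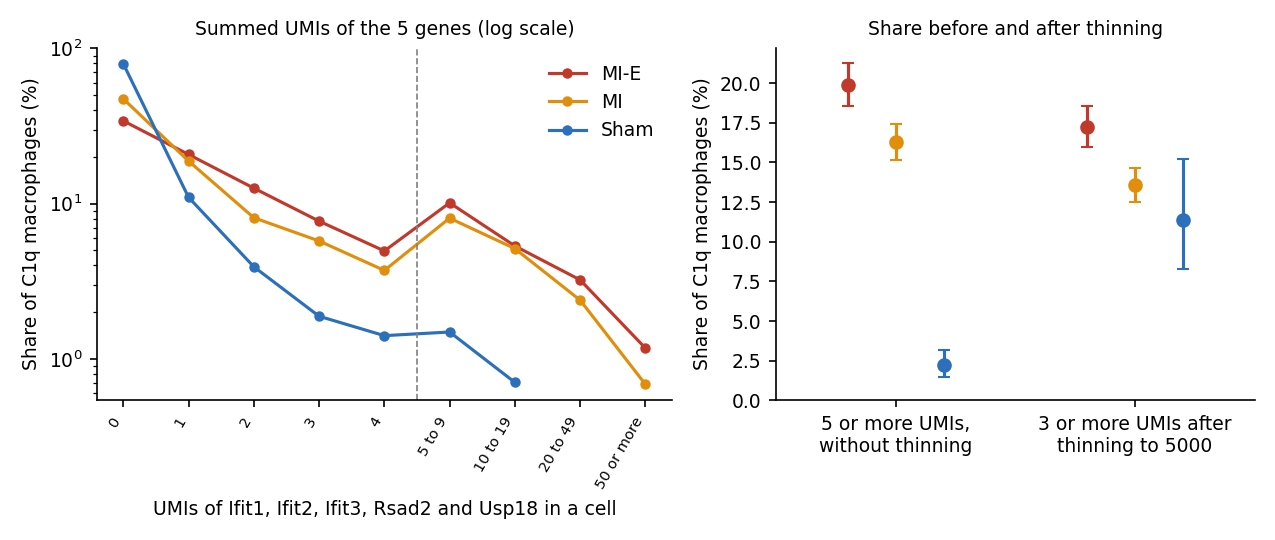
The left panel plots the share of C1q macrophages (%, log axis) by the summed UMIs of the 5 selecting genes, with the dashed line at the threshold of 5 and no point where no cell was found; the right panel plots the share selected in each library, with 95% Clopper-Pearson intervals. Steps above 4 UMIs pool several counts. The Sham share was 2.20% of 1275 C1q macrophages at 5 or more UMIs, and 11.4% at 3 or more UMIs of the 351 that could be thinned to 5000 UMIs.

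The same 5 genes were also seen in C1q macrophages that the other conditions left out. At least 5 UMIs were held by 45.5% of 101 macrophages with more than 1 UMI of Lyve1 and Timd4 in MI-E, by 29.6% of 250 in MI and by 4.78% of 1297 in Sham. Lyve1 and Timd4 mark macrophages resident in the heart. Thinned to 5000 UMIs with at least 3 UMIs, these shares were 36.5%, 26.2% and 7.77%. Among macrophages with MHC class II genes at 1% of UMIs or more, the thinned shares were 23.4%, 17.8% and 8.89%, and among those with more than 1 UMI of the cycling genes Mki67 and Top2a they were 21.7%, 10.7% and 6.58%. In lymphocytes, at least 5 UMIs were held by 1.64% of 488 barcodes in MI-E, 1.77% of 113 in MI and 0.656% of 3505 in Sham. Their median depths were 2814.5, 3142 and 2449 UMIs. The 5 genes summed to 103, 62.2 and 47.5 CPM in lymphocytes. In the other C1q macrophages, which held under 5 UMIs a cell by the rule, they summed to 92.3, 69.4 and 87.8 CPM.

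Against the other C1q macrophages, the selected cells held more RNA of interferon genes in most classes, while none of the receptors and their kinases was called in MI-E or MI. The rule used this contrast, so all of its values are a description and none was tested. A gene was counted as higher or lower where the CPM differed by at least 1.5-fold, with 1 CPM added to each value, and the counting interval left out 1, among genes with a mean of at least 10 CPM. Genes of the rule are not counted. A gene that is low in the other macrophages reaches 10 CPM only where it is high in the selected ones, so counts are also given with no such filter. Of 154 genes in the interferon lists, 123 reached this level in MI-E, where 68 were higher and none lower, with a median log2 ratio of 0.68. In MI 71 of 118 were higher and none lower, with a median of 0.75, and in Sham 52 of 116 were higher and 2 lower, with a median of 0.92. With no filter, 87 of 152 were higher in MI-E, 94 of 151 in MI and 55 of 149 in Sham. Over all genes, 3.67% were higher and 0.12% lower in MI-E, 2.59% and 0.154% in MI, and 7.08% and 3.06% in Sham, and the median log2 ratio was -0.01, -0.02 and -0.01. Without cells that held non-leukocyte RNA, 62 of 119 interferon genes were higher in MI-E, 70 of 117 in MI and 46 of 113 in Sham. Near-identical copies, such as the Ifit3, Oas, Phf11, Slfn, Gbp, H2-Q and Ccl3 and Ccl4 relatives, can split reads in the counting, so their single values are uncertain.

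The antiviral effectors were the largest class. They were higher for 33 of 43 genes in MI-E, 35 of 42 in MI and 23 of 37 in Sham. Cmpk2, a mitochondrial nucleotide kinase gene that lies beside Rsad2, stood at 64.1 CPM in the interferon-responsive against 5.60 in the other macrophages of MI-E, 11.4-fold higher (9.69 to 13.6). In MI it stood at 69.1 against 4.13 CPM, 16.7-fold higher (14.1 to 19.9), and in Sham at 73.0 against 1.60 CPM, from 14 UMIs against 7. Isg15, a ubiquitin-like protein that is attached to other proteins, stood at 993 against 343 CPM in MI-E, 1010 against 238 in MI and 1642 against 359 in Sham, which is 2.89-fold (2.82 to 2.97), 4.25-fold (4.13 to 4.38) and 4.57-fold (4.04 to 5.16) higher. Oasl1, a 2'-5'-oligoadenylate synthetase-like gene, was 2.90-fold (2.76 to 3.04), 3.13-fold (2.98 to 3.29) and 3.35-fold (2.42 to 4.54) higher in MI-E, MI and Sham. Slfn5, of the Schlafen family, was 2.78-fold, 2.91-fold and 3.58-fold higher. Ifi47, an interferon-induced GTPase gene, was 3.25-fold, 4.58-fold and 3.32-fold higher, and Phf11d was 2.65-fold, 3.06-fold and 4.64-fold higher.

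Of 16 interferon-inducible GTPase genes, 14 were higher in MI-E, 13 in MI and 8 in Sham with no filter on low values. At a mean of 10 CPM, which a gene low in the other macrophages reaches only where the selected cells are high, 7 genes were left in MI-E, 5 in MI and 8 in Sham, of which 7, 5 and 6 were higher. Irgm1, which acts on membranes that hold microbes, was 3.14-fold (2.78 to 3.54), 2.97-fold (2.64 to 3.35) and 3.28-fold (2.00 to 5.14) higher in MI-E, MI and Sham. Gbp2, a guanylate binding protein gene, stood at 89.4 against 23.5 CPM in MI-E, 45.6 against 12.3 in MI and 46.9 against 9.60 in Sham. The Sham level of Gbp2 rested on few cells. It came from 1 UMI over the 19 cells with 5 to 9 UMIs of the 5 genes. The 9 cells with 10 to 19 held 8 UMIs, and Gbp2 was seen in 11.1% of them. Without cells that held non-leukocyte RNA, described further on, the list was higher for 5 of 5 genes in MI-E, 5 of 5 in MI and 3 of 6 in Sham, and Gbp2 was 2.84-fold higher in MI-E (2.53 to 3.19).

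Of the nucleic acid sensors, 10 of 17 were higher in MI-E, 11 of 17 in MI and 9 of 18 in Sham. Ifih1, which encodes the RNA sensor MDA5, was 2.62-fold (2.41 to 2.85), 3.11-fold (2.85 to 3.39) and 3.54-fold (2.48 to 4.93) higher. Zbp1, a sensor of Z-form nucleic acid, was 1.61-fold, 2.15-fold and 2.45-fold higher. Ifi209, of the DNA-binding family that lies in 1 cluster with Ifi204 and Ifi205, was 2.76-fold, 3.28-fold and 3.83-fold higher. Ifi204 was 1.99-fold, 2.23-fold and 2.04-fold higher.

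Among the transcription factors, 7 of 14 were higher in MI-E, 7 of 14 in MI and 5 of 14 in Sham. Stat2, a transcription factor of type I interferon signalling, was 2.58-fold and 2.80-fold higher in MI-E and MI. In Sham, Stat2 stood at 15.6 against 18.5 CPM, on an interval of 0.171 to 2.56 for the ratio. Irf9, the DNA-binding part of the complex, was 1.33-fold, 1.25-fold and 1.21-fold higher, under the 1.5-fold level in all 3 libraries. The receptors and their kinases were 0 of 8 higher in MI-E and in MI. Ifnar1 stood at 53.4 against 54.4 CPM in MI-E and 54.1 against 59.2 in MI, and Ifnar2 at 230 against 234 and 193 against 202. In Sham, Jak2 was called higher and Ifnar2 and Ifngr1 lower, but without the 5 cells that held non-leukocyte RNA none of the 8 was called. Of the brakes on the signal, such as Socs1, 0 of 9 were higher in MI-E, 2 of 9 in MI and 3 of 9 in Sham, where 1 was lower.

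Of the interferon-induced chemokines and cytokines, 4 of 10 were higher in MI-E, 7 of 10 in MI and 5 of 11 in Sham. Cxcl10, which attracts T cells that carry Cxcr3, stood at 537 against 128 CPM in MI-E, 510 against 115 in MI and 1272 against 373 in Sham, which is 4.19-fold (4.02 to 4.36), 4.43-fold (4.26 to 4.61) and 3.41-fold (2.97 to 3.91) higher. Ccl5 was 2.75-fold, 3.71-fold and 2.43-fold higher. Ccl12, a ligand of the monocyte receptor Ccr2, was 1.67-fold, 1.71-fold and 1.65-fold higher from a high level, 1602 against 958 CPM in MI-E. Cxcl9, the chemokine gene most tied to interferon gamma, stood at 37.4 against 2.04 CPM in MI-E, 13.1 against 8.29 in MI and 73.0 against 10.7 in Sham. Thinned to 5000 UMIs, Cxcl9 was seen in 4.20% of the cells in MI-E, 3.02% in MI and 4.35% in Sham, against 0.940%, 0.880% and 2.13% of the other macrophages. Among lymphocytes at that depth it was seen in 3 of 70 (4.29%), 0 of 33 and 9 of 242 (3.72%), with intervals that reached over the shares of the selected cells in all 3 libraries, so no expression is read from these shares. Without cells that held non-leukocyte RNA, Cxcl9 was under a mean of 10 CPM in all 3 libraries. Of the genes that lean to interferon gamma, 4 of 8 were higher in MI-E, 3 of 7 in MI and 2 of 7 in Sham, and without those cells 1 of 6 in MI-E. Of the MHC class I and peptide-loading genes, 5 of 19 and 3 of 18 were higher in MI-E and MI, and 1 of 16 in Sham, where 7.08% of all genes were. Among those that were not, H2-K1, the heavy chain of a classical class I molecule, stood at 1336 against 1206 CPM in MI-E.

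**Figure D2:**
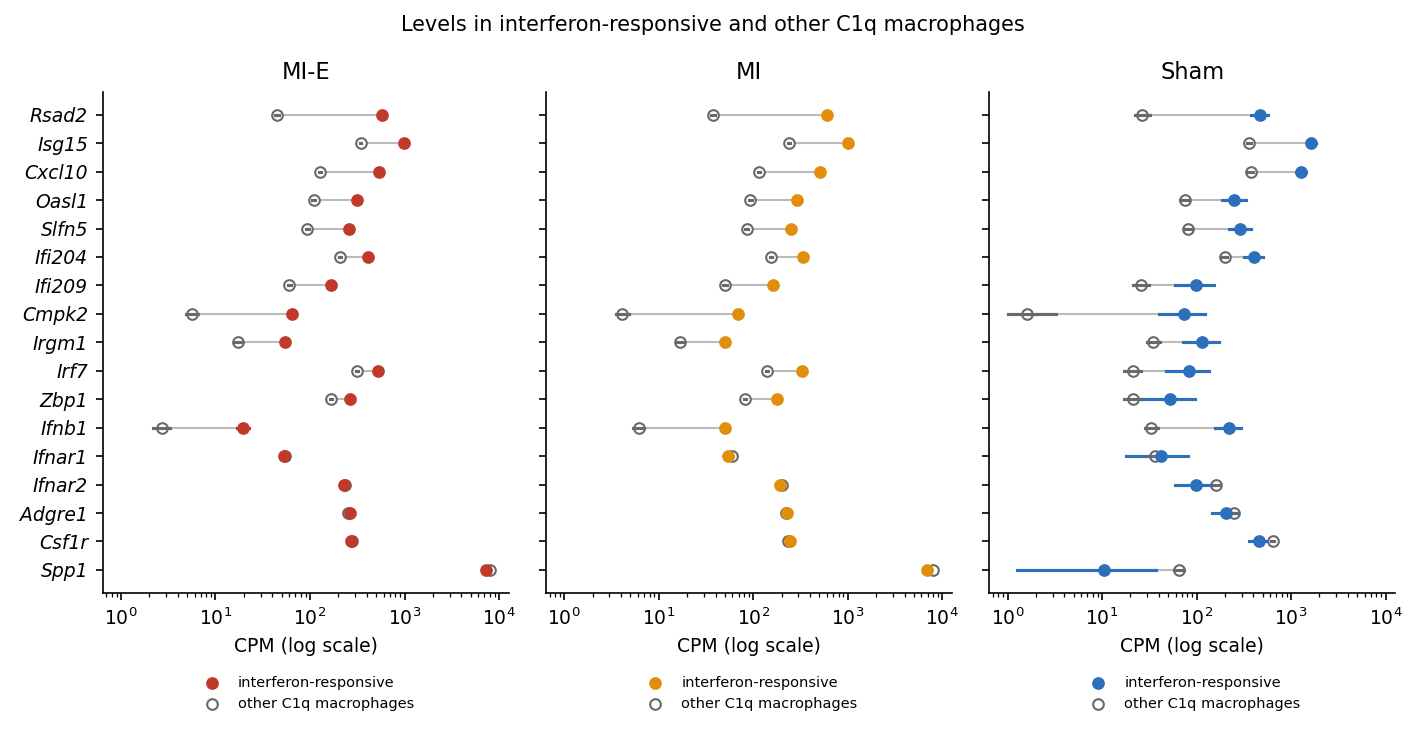
The levels of 17 genes in CPM (log axis) are plotted for interferon-responsive macrophages (filled) and other C1q macrophages (open) of each library, with 95% counting intervals as thick lines (intervals reaching below 1 CPM are drawn from 1). The interferon genes from Rsad2 to Ifnb1 lay to the right in the interferon-responsive cells of all 3 libraries, while Ifnar1, Adgre1 and Csf1r lay close together in MI-E and MI.

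Outside the interferon lists, the rule for naming genes gave Ifi206, Phf11a, Ccl4, Samd9l, Trafd1, Egr1, Rnf213, Ccl3, Acod1 and Ube2l6. Ifi206, a relative of Ifi204, stood at 76.1 against 19.5 CPM in MI-E, 67.4 against 11.9 in MI and 83.4 against 12.6 in Sham. The inflammatory chemokine gene Ccl4 stood at 2206 against 886 CPM in MI-E, 3686 against 1151 in MI and 19570 against 5740 in Sham. Ccl3 was 1.76-fold, 1.80-fold and 2.31-fold higher. Egr1, an immediate early gene, was 2.30-fold and 2.10-fold higher in MI-E and MI, and stood at 1006 against 917 CPM in Sham. Egr1 is also 1 of 20 genes tied to tissue dissociation, of which 4 were higher in MI-E and 1 in MI, while 5 were lower in Sham. Acod1, which makes itaconate, was 1.95-fold higher in MI-E and 1.75-fold in MI. Rnf213 and Ube2l6 encode ubiquitin ligation enzymes, and Ube2l6 is the enzyme that passes Isg15 on. They were 1.79-fold and 1.72-fold higher in MI-E, 2.01-fold and 1.86-fold in MI, and 3.80-fold and 2.59-fold in Sham.

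Few genes were lower in MI-E and MI. The count was 8 of 6655 genes in MI-E and 10 of 6488 in MI, and 3 genes were lower in both, while in Sham 205 of 6705 were lower (3.06%). The 3 genes were the haemoglobin gene Hbb-bs, Ccl24 and Slc40a1. Of the 12 lowest genes named by the rule, none reached 1.5-fold in both libraries, and they were Cytip, Vegfa, Mgst1, Pf4, Clec4n, Cxcl3, Arg1, Pdpn, Antxr2, Ednrb, Mxi1 and Crem. Arg1, the arginase of wound-healing macrophages, stood at 520 against 738 CPM in MI-E and 433 against 564 in MI. Pf4, a platelet and macrophage chemokine gene, stood at 4026 against 5558 CPM and 4926 against 6552. Of 16 lipid-handling genes, such as Spp1, Gpnmb and Fabp5, 1 was higher and none lower in MI-E and none was called in MI. Osteopontin is the product of Spp1, with 7233 against 8070 CPM in MI-E and 6893 against 8043 in MI. None of 20 oxidative phosphorylation genes passed the level in either library. Red cell genes were lower for 1 of 1 measured gene in MI-E, 4 of 4 in MI and 4 of 4 in Sham, with a summed level of 15.9 against 52.9 CPM in MI-E, 9.92 against 340 in MI and 41.7 against 7769 in Sham.

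Classical monocyte genes were called in unlike numbers in the libraries, a difference that was not tested. In MI, 5 of 14 were higher, and the level of Ly6c2, a surface antigen that marks classical monocytes, was 1.82-fold higher (1.72 to 1.92). Plac8, another monocyte gene, stood at 609 against 336 CPM and Ms4a4c at 231 against 108. In MI-E, Ms4a4c and Ly6c1 were higher, at 380 against 234 CPM for Ms4a4c. Ly6c2 stood at 338 against 311 CPM and Plac8 at 786 against 671. Ly6c1, which endothelial cells also make, was under a mean of 10 CPM in all 3 libraries without cells that held non-leukocyte RNA. Ccr2, the receptor that draws monocytes to tissue, stood at 172 against 165 CPM in MI-E and 162 against 136 in MI.

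**Figure D3:**
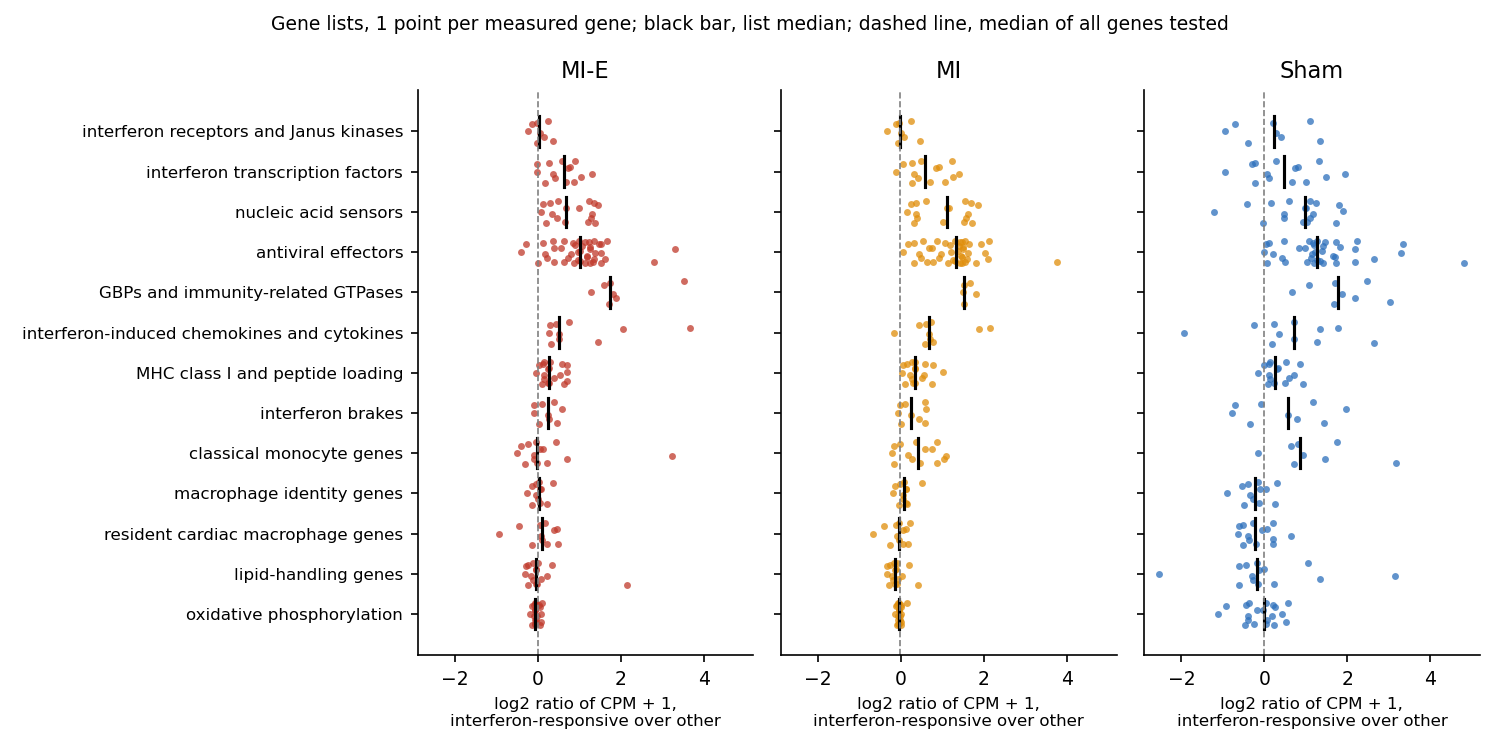
Each point is 1 measured gene of a list, plotted by its log2 ratio of CPM + 1 in interferon-responsive over other C1q macrophages, with the list median as a black bar and the median of all genes tested as a dashed line. The antiviral effectors had medians of 1.01 in MI-E, 1.33 in MI and 1.27 in Sham, against 0.02, 0.06 and -0.21 for the macrophage identity genes.

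Of 6350 genes tested in both MI-E and MI, 120 were higher in both, among 173 higher in MI-E and 165 higher in MI. Of the 120, 62 were in the interferon lists, in this paragraph with the ligand gene Ifnb1 counted in, and 58 were not. In Sham 104 of them could be tested, and 55 were higher and 0 lower there. The ISRE core on either strand was found in the promoter window of 33 of the 100 such genes with a RefSeq window (33%), against 227 of the 5144 tested genes with one (4.41%) and 1079 of all 27025 genes (3.99%). Inside the interferon lists it was found in 23 of 49 (46.9%), and outside them in 10 of 51 (19.6%). Of the genes higher by 2-fold to 4-fold in both libraries, 22 of 45 held it (48.9%), and of those under 2-fold, 10 of 52 (19.2%). Of the 3 genes at least 4-fold higher in both, 1 held it. The GAS core TTCNNNGAA, which reads the same on both strands, was found in 9 of 100 (9%), against 7.76% of tested and 9.55% of all genes. These genes were chosen by their values, and a match is not a binding site, so the shares were not tested.

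The levels of genes that the rule did not use were graded along the 5 selecting genes. In MI-E, Isg15 stood at 265 CPM in cells with 0 UMIs of the 5 genes, 391 with 1 to 4, 615 with 5 to 9, 1015 with 10 to 19 and 1769 with 20 or more. In MI the same steps were 153, 337, 635, 1073 and 1764 CPM. In Sham they were 261, 617, 1553 and 1802 CPM up to 19 UMIs, the last over 9 cells. Cxcl10 went the same way in MI-E, with 95.3, 149, 288, 468 and 1140 CPM. Irf7 started higher in MI-E, at 277 CPM in cells with 0 UMIs, against 110 in MI and 16.4 in Sham. Spp1 kept a high level along the steps of MI-E, between 6203 and 8175 CPM.

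**Figure D4:**
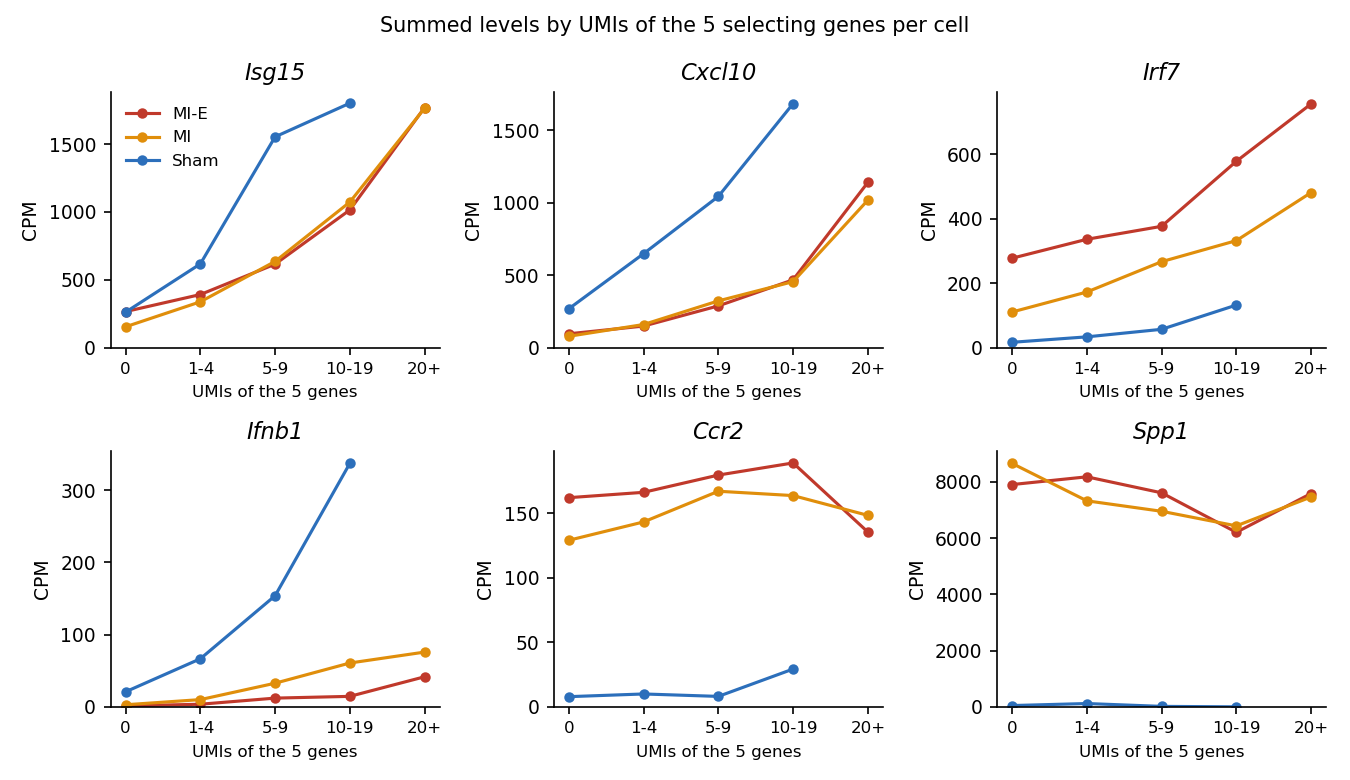
The summed level (CPM) of 6 genes is plotted by the UMIs of the 5 selecting genes in a cell, 1 line a library; Sham had no cell with 20 or more. Isg15, Cxcl10, Irf7 and Ifnb1 were higher at each further step in all 3 libraries, while Ccr2 and Spp1 were not.

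Ifnb1, the gene of interferon beta, was the interferon gene with UMIs enough to measure in the interferon-responsive cells. It stood at 19.7 against 2.71 CPM in MI-E, 50.5 against 6.14 in MI and 219 against 33.4 in Sham, which is 7.26-fold (5.62 to 9.45), 8.23-fold (7.05 to 9.63) and 6.56-fold (4.54 to 9.30) higher in the interferon-responsive cells. The highest single cell held 20 of the 192 UMIs in MI-E, 21 of 479 in MI and 20 of 42 in Sham. At least 1 UMI was seen in 66 of 677 such cells in MI-E (9.75%), 149 of 688 in MI (21.7%) and 12 of 28 in Sham (42.9%), against 2.23%, 3.70% and 5.05% of the other C1q macrophages. Thinned to 5000 UMIs, the shares were 5.40%, 13.9% and 39.1% against 0.940%, 2.09% and 8.84%. Lymphocytes, at lower depth, gave 0 of 488 in MI-E, 0 of 113 in MI and 9 of 3505 in Sham (0.257%). By 3 counts of the total, the counts of 0 allow up to 0.615% and 2.65% of barcodes with an Ifnb1 UMI, which does not limit the cells that express it. Read the other way, 52.0% of the 127 C1q macrophages with Ifnb1 in MI-E were interferon-responsive (42.9% to 60.9%), against 18.6% of the 3282 without it. In MI this was 53.2% of 280 against 13.7% of 3947, and in Sham 16.0% of 75 against 1.33% of 1200. The median depth of the cells with and without Ifnb1 was 12423 and 11325 UMIs in MI-E, 11850 and 10779 in MI, and 5558 and 3422 in Sham. Ifnb1 also followed the steps of the 5 genes, with 2.89, 9.99, 32.7, 60.6 and 75.7 CPM in MI. The interferon alpha genes were at or near 0 UMIs in every library.

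MI-E and MI were then compared within the interferon-responsive cells. Isg15, Cmpk2 and Cxcl10 stood at like levels, while the monocyte genes Ly6c2 and Chil3 were higher in MI-E and Ifnb1 was lower, also with median-of-ratios scaling. Isg15, Cmpk2 and Cxcl10 rose with the selecting genes, so their like levels are not free of the selection. Its part in them was not tested. In macrophages with 0 UMIs of the selecting genes, Isg15 stood at 265 CPM in MI-E against 153 in MI. Cxcl10 stood there at 95.3 against 78.1 CPM, and Cmpk2 at 3.66 against 2.52. Ly6c2, Chil3 and Ifnb1 differed in the same directions in the other C1q macrophages. The counting rule called 298 of 6630 genes higher (4.49%) and 118 lower (1.78%). Median-of-ratios scaling, which shifted the log2 ratios by 0.11, gave 172 higher and 232 lower, so the balance of the directions depends on the scaling. Of the interferon genes, without the ligand genes such as Ifnb1, 21 of 130 were higher and 1 lower, with a median log2 ratio of 0.27 against 0.10 over all genes, and 13 were higher and 1 lower with the other scaling. Isg15 was 0.983-fold (0.955 to 1.01), Cmpk2 0.927-fold (0.830 to 1.04) and Cxcl10 1.05-fold (1.01 to 1.09) in MI-E over MI. Irf7 was 1.56-fold (1.49 to 1.63) higher in MI-E, Zbp1 1.51-fold (1.42 to 1.61) and Ifi205 1.55-fold (1.44 to 1.67). With the other scaling they were 1.45-fold, 1.40-fold and 1.44-fold, and none of the 3 was called. Ccl5 was lower, at 147 CPM in MI-E against 224 in MI.

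Non-leukocyte RNA moved with this comparison. At least 5 UMIs over the endothelial, fibroblast and cardiomyocyte markers were held by 92 of 677 interferon-responsive cells in MI-E (13.6%), 24 of 688 in MI (3.49%) and 5 of 28 in Sham (17.9%), against 4.06%, 2.15% and 3.37% of the other C1q macrophages. The 10 endothelial markers summed to 275 CPM in MI-E, 66.4 in MI and 1204 in Sham, against 38.9, 32.8 and 131 CPM in the other macrophages, and none of the 10 was at 0. The part of such RNA in the results was not tested beyond the values without these cells. The leading genes named for MI-E over MI were Serpinh1, Sparc, Igfbp7, Iigp1, Tm4sf1, Timp1, Hspb1, Col4a1, Ctla2a and Gng11, of which Sparc stood at 282 CPM in MI-E against 39.6 in MI. Iigp1, an immunity-related GTPase gene, stood at 72.7 CPM in MI-E against 11.1 in MI, 6.56-fold higher (5.34 to 8.13), and the GTPase list was higher for 6 of 9 genes with a median of 0.77, and for 5 of 9 with the other scaling.

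Without the cells that held at least 5 such UMIs, a choice made after the data were seen, 585 cells in MI-E and 664 in MI remained, and 214 genes were higher and 144 lower in MI-E. Iigp1 then stood at 13.9 CPM in MI-E against 8.02 in MI, 1.73-fold higher (1.28 to 2.37), and the GTPase list was higher for 2 of 7 genes with a median of 0.27. Serpinh1, Sparc, Igfbp7, Tm4sf1 and Col4a1 were below a mean of 10 CPM. Irf7 was 1.54-fold higher (1.47 to 1.62). The genes that led were Ppbp, Chil3, Acod1, Neat1 and H2-Q7. Chil3, a chitinase-like gene found in classical monocytes, had 796 CPM in MI-E against 333 in MI and was 2.39-fold higher (2.29 to 2.50), and Ly6c2 had 359 against 185 CPM, 1.95-fold higher (1.83 to 2.07). In all cells, 4 of 14 classical monocyte genes were higher in MI-E and none lower.

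Fkbp5, a target of glucocorticoid receptor signalling, had the largest difference in the other direction, at 12.9 CPM in MI-E against 60.5 in MI. It was 0.214-fold in MI-E over MI (0.175 to 0.260) and was seen in 14.3% against 50.3% of the cells. The other C1q macrophages had like values, 11.1 CPM in MI-E against 54.7 in MI. Ifnb1 was 0.389-fold (0.328 to 0.461) in the interferon-responsive cells of MI-E over MI. The other genes named as lower in MI-E were Rcan1, Erh, Stmn1, Tmsb10, Nop10, Areg, Cmc1 and Mrps28. Tmsb10, which binds actin monomers, stood at 1393 CPM in MI-E against 2477 in MI. Irf7 and Chil3 differed in the other macrophages too, where 209 of 6574 genes were higher (3.18%) and 117 lower (1.78%) in MI-E. The levels there were 313 CPM in MI-E against 139 in MI for Irf7 and 784 against 292 for Chil3.

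**Figure D5:**
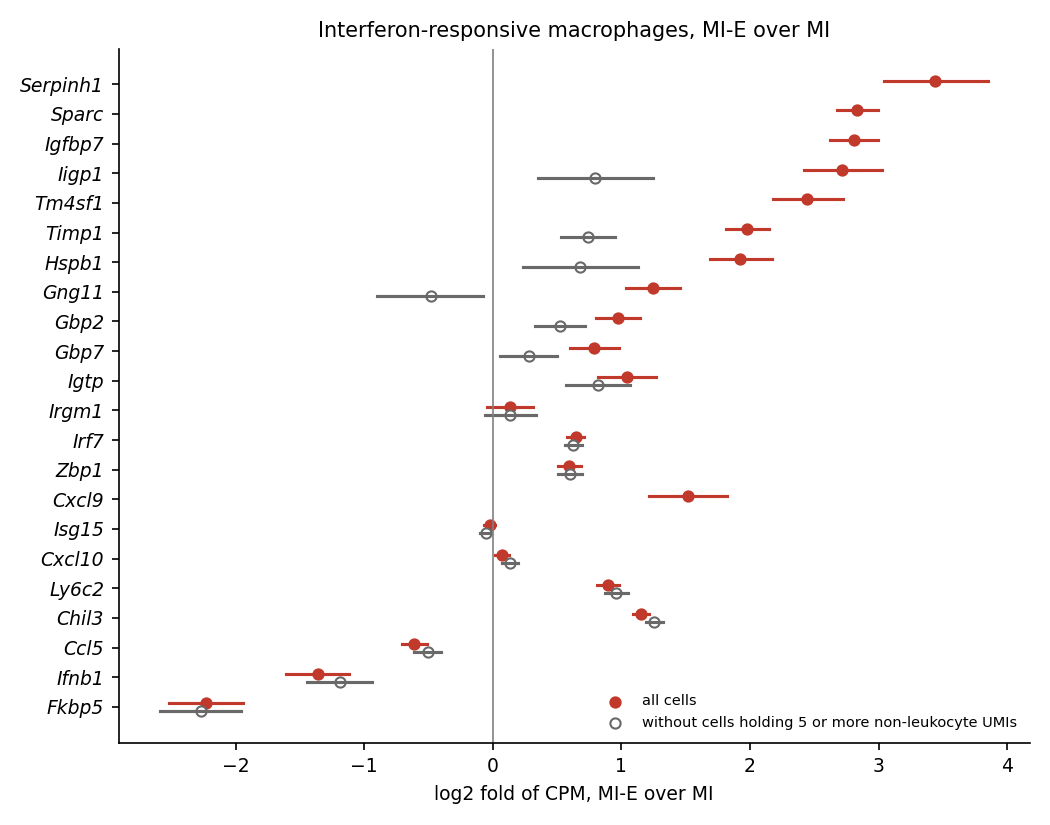
The log2 fold of CPM in MI-E over MI is plotted for interferon-responsive macrophages, with 95% counting intervals, over all cells (filled) and without cells holding 5 or more non-leukocyte UMIs (open, absent where the gene was then under a mean of 10 CPM). Iigp1 was 6.56-fold with all cells and 1.73-fold without those cells, Gng11 changed side, and Irf7 and Fkbp5 stayed close to their first values.

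The 28 Sham cells held 191875 UMIs in all, so 3 UMIs were 15.6 CPM, and comparisons with them cover high genes only. MI-E had 1028 of 6855 genes higher (15%) and 820 lower (12%) than Sham, and MI had 919 of 6721 higher (13.7%) and 931 lower (13.9%). Both use the same 28 cells. Median-of-ratios scaling gave 759 higher and 971 lower for MI-E, with a shift of 0.15 on the log2 scale, so the balance depends on the scaling there too. Spp1 stood at 7233 CPM in MI-E and 6893 in MI, against 10.4 in Sham, where 2 UMIs were seen. Arg1 stood at 520 and 433 CPM, against 0 UMIs in Sham, which is at least 33.3-fold and 27.7-fold higher against a floor of 3 counts over the group. Gpnmb, a lysosomal glycoprotein gene, was at least 19.8-fold and 19.9-fold higher on the same floor, and Pdpn at least 11.3-fold and 7.68-fold. The other C1q macrophages were alike in this, with Spp1 at 8070 CPM in MI-E and 8043 in MI, against 65.2 in Sham.

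The interferon genes did not move as 1 group against Sham. In MI-E over Sham 40 of 130 were higher and 16 lower, and in MI over Sham 26 of 128 were higher and 21 lower. Irf7 was 6.22-fold (3.83 to 10.9) and 3.98-fold (2.45 to 6.97) higher in MI-E and MI, and Zbp1 was 5.11-fold and 3.38-fold higher. Isg15 was 0.605-fold and 0.615-fold, and Cxcl10 0.422-fold (0.371 to 0.482) and 0.401-fold (0.353 to 0.458) of the Sham level. Irgm1 was 0.478-fold and 0.436-fold. Ifnb1 was 0.0899-fold (0.0641 to 0.129) in MI-E and 0.231-fold (0.168 to 0.325) in MI. Of the 42 Ifnb1 UMIs in the Sham cells, 20 were in 1 cell. The rule asked for 5 UMIs at any depth, so the less deep Sham cells needed a larger share of the 5 genes. The median share was 0.124% of UMIs in Sham, against 0.0781% in MI-E and 0.0801% in MI. Isg15, Cxcl10, Irf7 and Ifnb1 rose with the 5 genes, so their ratios to Sham are not free of the selection. Its part in them was not tested. Irf7 and Ifnb1 differed in the same directions in the other C1q macrophages. Irf7 stood there at 313 CPM in MI-E and 139 in MI, against 21.0 in Sham. Ifnb1 stood at 2.71 and 6.14 CPM, against 33.4 in Sham. In macrophages with 0 UMIs of the 5 genes, Cxcl10 stood at 95.3 CPM in MI-E and 78.1 in MI, against 268 in Sham. Isg15 was lower there than in Sham in MI only, at 153 CPM in MI and 265 in MI-E against 261. Resident macrophage genes were lower for 12 of 14 in both comparisons, and Folr2, which encodes a folate receptor, stood at 136 CPM in MI-E and 125 in MI, against 641 in Sham. Thinned to 5000 UMIs, Folr2 was seen in 28.2% of the other C1q macrophages of MI-E and 35.4% of MI, against 69.2% of Sham.

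The genes named as lower in MI than in Sham were Aqp1, Ccn1, Hspa1b, Rflnb, C1qtnf9, Dlg1, Cavin2, Tcim, Clic5 and Ccl24, and for MI-E they were Mgl2, Dlg1, Gpr34, Hpgd and Hspa1b. Single cells carried some of them, since 113 of the 116 Dlg1 UMIs in Sham were in 1 of the 28 cells, as were 16 of 21 for Ccn1 and 41 of 79 for Ccl24. With at least 10 UMIs of the 5 genes, the log2 ratio of Dlg1 was -0.83 in MI-E over Sham and -0.84 in MI over Sham. Mgl2 was seen in 22 of the 28 cells, Hpgd in 20 and Hspa1b in 25. Aqp1, which encodes a water channel of endothelium, stood at 2.00 CPM in MI, against 250.2 in Sham. Without the 5 Sham cells holding non-leukocyte UMIs, Aqp1, Rflnb, C1qtnf9, Cavin2 and Clic5 were under a mean of 10 CPM. Of 20 genes tied to tissue dissociation, 18 were lower in both comparisons, and their sum was 8553 CPM in MI-E and 7473 in MI, against 28008 in Sham. The other C1q macrophages showed the same order, at 7475, 6844 and 33010 CPM. The part of dissociation in these differences was not tested, and library and group cannot be told apart.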

How the data were processed

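Unique molecular identifiers (UMIs) were counted in droplets from 3 libraries of CD45-sorted heart cells, prepared with 3' chemistry, per the labels' protocols. The deposited files hold raw counts per gene and barcode, and the submitters' processing notes name Cell Ranger 5.0.1 and the mm10 build. No source used here names the annotation release. Barcodes were selected as described in the report. The members and the gene lists were chosen with earlier results of these data known.

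Counts were summed over cells and scaled to a common total as CPM. Ratios were taken as log2(CPM + 1), among genes with a mean of at least 10 CPM over both populations, with the exact interval for a pair of Poisson counts. A call needed a 1.5-fold difference and an interval that left out 1. This step was tried on simulated Poisson counts, the model that the interval assumes. They hold no spread between cells, so the trial says nothing on levels carried by single cells. No test between groups was possible with 1 library a group. Shares have Clopper-Pearson intervals. Barcodes with at least 3 UMIs over Cd79a and Ms4a1, or over Cd3d, Cd3e and Cd3g, and none of Csf1r and Adgre1 were taken as lymphocytes, and served as a level for free RNA. Library totals were between 41140109 and 104562768 UMIs.

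Doublets were marked with Scrublet in scanpy 1.11.5 and kept. It marked 2.36% of the interferon-responsive and 1.21% of the other macrophages in MI-E, where its automatic threshold was used, and 11.0% against 6.61% in MI and 7.14% against 6.66% in Sham, where barcodes were marked from the top score down until the expected number was reached, so shares cannot be compared between libraries. They were left out in an alternative. The named genes were the 12 highest and 12 lowest by the smaller of the MI-E and MI ratios, the 10 highest outside the interferon lists, the 10 highest and 10 lowest for MI-E over MI and for MI over Sham, and 5 and 5 for MI-E over Sham. They had at least 50 CPM and UMIs in 10% of the cells of the higher population, and genes of the rule, mitochondrial and ribosomal genes and markers of other cell types were left out. Alternatives changed the pseudocount, the filter, the scaling, the weight of cells, the depth, the threshold and the comparison population. Promoter windows came from RefSeq for GRCm38.p6. Python 3.11.15, numpy 2.4.6, scipy 1.17.1, pandas 2.3.3 and matplotlib 3.10.9 were used.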

Additional observations from a re-analysis of the deposited data

How the results depend on the processing

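The number of higher and lower genes depended on the threshold and filter, and the share in Sham on depth. With a pseudocount of 10 CPM, 3 genes were lower than in other macrophages in MI-E and 6 in MI, and MI-E over MI had 138 higher and 55 lower genes, with 12 interferon genes higher. With no filter on low values there were 1005 higher and 95 lower in MI-E, 402 and 153 in MI, and 1229 and 324 for MI-E over MI. Median-of-ratios scaling gave 172 and 232 for MI-E over MI, with 13 interferon genes higher. With every cell weighted equally, 20 genes were lower in MI. Without doublets, 19 genes were lower in MI, and 13 interferon genes were higher in MI-E over MI. Against all other C1q macrophages, 40 genes were lower in MI-E and 108 in MI. With at least 10 UMIs of the 5 genes, 398 were higher and 25 lower in MI-E and 22 lower in MI, the interferon medians were 0.95 in MI-E and 0.99 in MI, 467 genes were higher in MI-E over MI, 463 genes (19 of them interferon) in MI-E over Sham, and 439 (15) in MI over Sham. Without cells holding non-leukocyte RNA, an alternative chosen after seeing the data, 147 genes were higher in MI-E and 222 in Sham, the share in MI-E was 18.2%, and Gng11 was -0.45 on the log2 scale in MI-E over MI. Against the other macrophages of Sham, named genes that were not called also changed sign, with Cytip at -1.41 in place of 0.85 and Egr1 at -0.38 in place of 0.13. The cause of these moves was not tested.

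The shares in MI-E, MI and Sham were 32.5%, 25.7% and 5.49% at 3 or more UMIs, with ratios to Sham of 5.93 for MI-E and 4.69 for MI. At 10 or more they were 9.74%, 8.21% and 0.706%, with ratios of 13.8 and 11.6. Thinned to 5000 UMIs they were 17.2%, 13.5% and 11.4% at 3 or more, with ratios of 1.51 and 1.19, and 9.07%, 7.33% and 4.84% at 5 or more, with ratios of 1.87 and 1.51. At 0.05% of UMIs they were 15.8%, 14.5% and 8.00%, with ratios of 1.97 and 1.82, and MI-E was 1.09 times MI. Over all C1q macrophages they were 17.1%, 12.2% and 0.663%, with ratios of 25.8 and 18.3, and MI-E was 1.41 times MI. In Sham 919 of 1247 other macrophages held under 5000 UMIs, so the Sham share was measured on few cells. No paired analysis was possible because each group has 1 library.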

Other observations

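Barcodes with S100a8 and S100a9, the calprotectin genes that fill neutrophils, at 1% of UMIs or more and no UMI of Csf1r also held the 5 interferon genes. At least 5 UMIs were seen in 344 of 2102 such barcodes in MI-E (16.4%), 26 of 260 in MI (10.0%) and 4 of 573 in Sham (0.698%), at median depths of 2181, 2011.5 and 1572 UMIs. The 5 genes summed to 1039 CPM in those barcodes of MI-E, 689 in MI and 95.5 in Sham. In the interferon-responsive macrophages of the same libraries the sums were 1142, 1099 and 1365 CPM. Those macrophages were selected on the 5 genes and the barcodes above were not, so these sums do not compare the cell types. Before that selection, at least 5 UMIs were held by 19.9% of the C1q macrophages in MI-E, 16.3% in MI and 2.20% in Sham. Their median depths were 11353, 10859 and 3570 UMIs.

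Outside the selected cells, Ifnb1 was seen in 327 of 2948 C1q macrophages of Sham that failed the conditions on Lyve1, Timd4, MHC class II or cycling genes (11.1%), with 1196 UMIs, against 34 of 545 in MI-E (6.24%) and 116 of 1431 in MI (8.11%). In Sham lymphocytes, 60 of the 69 Ifnb1 UMIs were in 1 barcode. Ifng, the gene of interferon gamma, had 202 UMIs in all barcodes of MI-E, 124 in MI and 511 in Sham, of which 1, 0 and 0 were in interferon-responsive macrophages.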
